A study of Homo sapiens with 8 samples.

Results

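The endoplasmic reticulum (ER) chaperones and the genes of the unfolded protein response were followed here as a set of 33 named genes in the established line H1 of human embryonic stem cells. The genes were chosen by symbol and not by their measured values: every RefSeq transcript of the deposited tables that belongs to 1 of the 33 symbols was taken, and its FPKM, a level scaled to transcript length and library size, was summed per gene. All 33 genes had at least 1 transcript, 61 in all among 49235 transcripts and 25558 gene symbols. The mean over the 8 libraries was at least 1 FPKM for 32 of them. ERN1, at a mean of 0.567 FPKM, was below that level and is described by its values only.

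The cells carried a short hairpin RNA under doxycycline control, either against EXOSC3 (shEXOSC3), a core subunit of the RNA exosome that trims and degrades RNA, or a non-silencing hairpin (shNS). Total RNA depleted of ribosomal RNA was sequenced from shEXOSC3 cells with and without doxycycline and from shNS cells with and without doxycycline, after 5 or 7 days. Each of these 8 groups was 1 library, so no difference between them has a replicate check and no test was run. All groups shared feeder-free culture on Matrigel with puromycin at passages 40 to 60; the sources used here do not give whether the lines are clones. Because doxycycline was given to both lines, each ratio in shEXOSC3 is set beside that in shNS.

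The ER folds proteins that are secreted or placed in membranes. When unfolded proteins build up there, the sensors IRE1 (ERN1), PERK (EIF2AK3) and ATF6 start the unfolded protein response: IRE1 splices XBP1 mRNA so that it encodes an active transcription factor, ATF6 is cut to release one, and PERK phosphorylates the initiation factor eIF2 alpha, which slows translation and raises ATF4. ATF6 and spliced XBP1 drive chaperone and degradation genes, whereas ATF4 drives amino acid and stress genes such as ASNS, DDIT3 and TRIB3. PERK shares that last branch with other kinases of eIF2 alpha, in what is called the integrated stress response.

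EXOSC3 stood at 11.3 FPKM with doxycycline and 25.2 FPKM without in shEXOSC3 on day 5 (45.0% of untreated). On day 7 it was 12.3 FPKM with and 25.2 FPKM without (48.9%). In shNS it was 102% of the untreated level on day 5 and 90.6% on day 7. The deposited values are FPKM, so the read depth is unknown; from the steps of low values, the depth of the doxycycline library relative to its untreated partner was 1.01 and 0.920 in shEXOSC3, against 1.59 and 1.34 in shNS on days 5 and 7. The 3 most abundant transcripts took 23.8% to 27.6% of the summed FPKM in the day 5 libraries and 6.21% to 7.16% in those of day 7. Of 8 embryonic stem cell markers, 7 were measured and all were above 1 FPKM. Their sum was 1719 FPKM with doxycycline and 2198 FPKM without in shEXOSC3 on day 5, 2085 and 2736 FPKM on day 7, 1864 and 2115 FPKM in shNS on day 5, and 2255 and 2696 FPKM on day 7. Among fibroblast markers, DCN and LUM were at 0 in every library and COL3A1 stayed near 0. COL1A1 had 9.11 FPKM with doxycycline and 4.52 FPKM without in shEXOSC3 on day 5, against 3.87 and 5.34 FPKM in shNS. COL1A2 had 16.6 and 10.7 FPKM in shEXOSC3 on day 5, against 15.4 and 16.7 FPKM in shNS. Both were thus higher with doxycycline in shEXOSC3 and lower in shNS on that day. On day 7 COL1A1 was lower with doxycycline in both lines. COL1A2 had 10.2 and 9.85 FPKM in shEXOSC3 on day 7, against 10.4 and 10.8 FPKM in shNS. The sums of the fibroblast list were mostly THY1, so they are no measure of fibroblast content. They were 133 and 223 FPKM with doxycycline and 97.3 and 206 FPKM without in shEXOSC3 on days 5 and 7. In shNS they were 104 and 167 FPKM with and 96.2 and 181 FPKM without. Summed markers of endoderm (highest 4.02 FPKM, with TTR at 0), neuroectoderm (0.717 FPKM), mesoderm (0.762 FPKM) and trophectoderm (9.42 FPKM, with CGA at 0 and KRT7 leading) were low. The part of these differences in the values below was not tested, and in bulk RNA fewer cells of a type and less RNA per cell cannot be told apart.

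No member reached a 2-fold difference (0 of 32) between doxycycline and no doxycycline in either line on either day. Across the 13116 genes compared (mean of at least 1 FPKM, no failed estimate), the share at or past 2-fold in either direction was 2.05% and 2.92% in shEXOSC3 on days 5 and 7, against 1.32% and 2.05% in shNS. Ratios are given as log2((FPKM + 1)/(FPKM + 1)), doxycycline over none, which understates the difference of a gene near 0; what remains of a shEXOSC3 ratio once that of shNS on that day is taken off is called the adjusted difference. The median over members was 0.05 and -0.07 in shEXOSC3 on days 5 and 7, and 0.05 and -0.02 in shNS, beside medians of 0.00, 0.00, 0.01 and 0.00 over all genes compared. The median of the list therefore sat within 0.07 of log2 from 0 in each table, and individual genes spread to both sides of it.

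At a smaller size, a log2 of 0.32 or a ratio of 5 to 4, 6 members were higher and 2 lower in shEXOSC3 on day 5, beside 14.1% higher and 10.8% lower of all genes. On day 7 the order turned, with 2 higher and 6 lower, beside 13.4% and 12% of all genes. Of the 32 members, 26 had a mean of at least 10 FPKM. Among all 6604 genes at that level, 8.33% were higher and 12.3% lower in shEXOSC3 on day 5, and 8.93% and 13.5% on day 7. In shNS 3 members were higher and 0 lower on day 5, beside 5.18% and 5.6%, and 3 were higher and 1 lower on day 7, beside 8.17% and 8.35%. With each library centred on its median gene, the counts became 5 higher and 4 lower in shEXOSC3 on day 5, 1 higher and 0 lower in shNS on day 5, and 3 higher and 2 lower in shNS on day 7. With 32 members, 1 gene is about 3 percentage points (3.125), so shares this close to those of all genes are no result about the list.

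**Figure D1:**
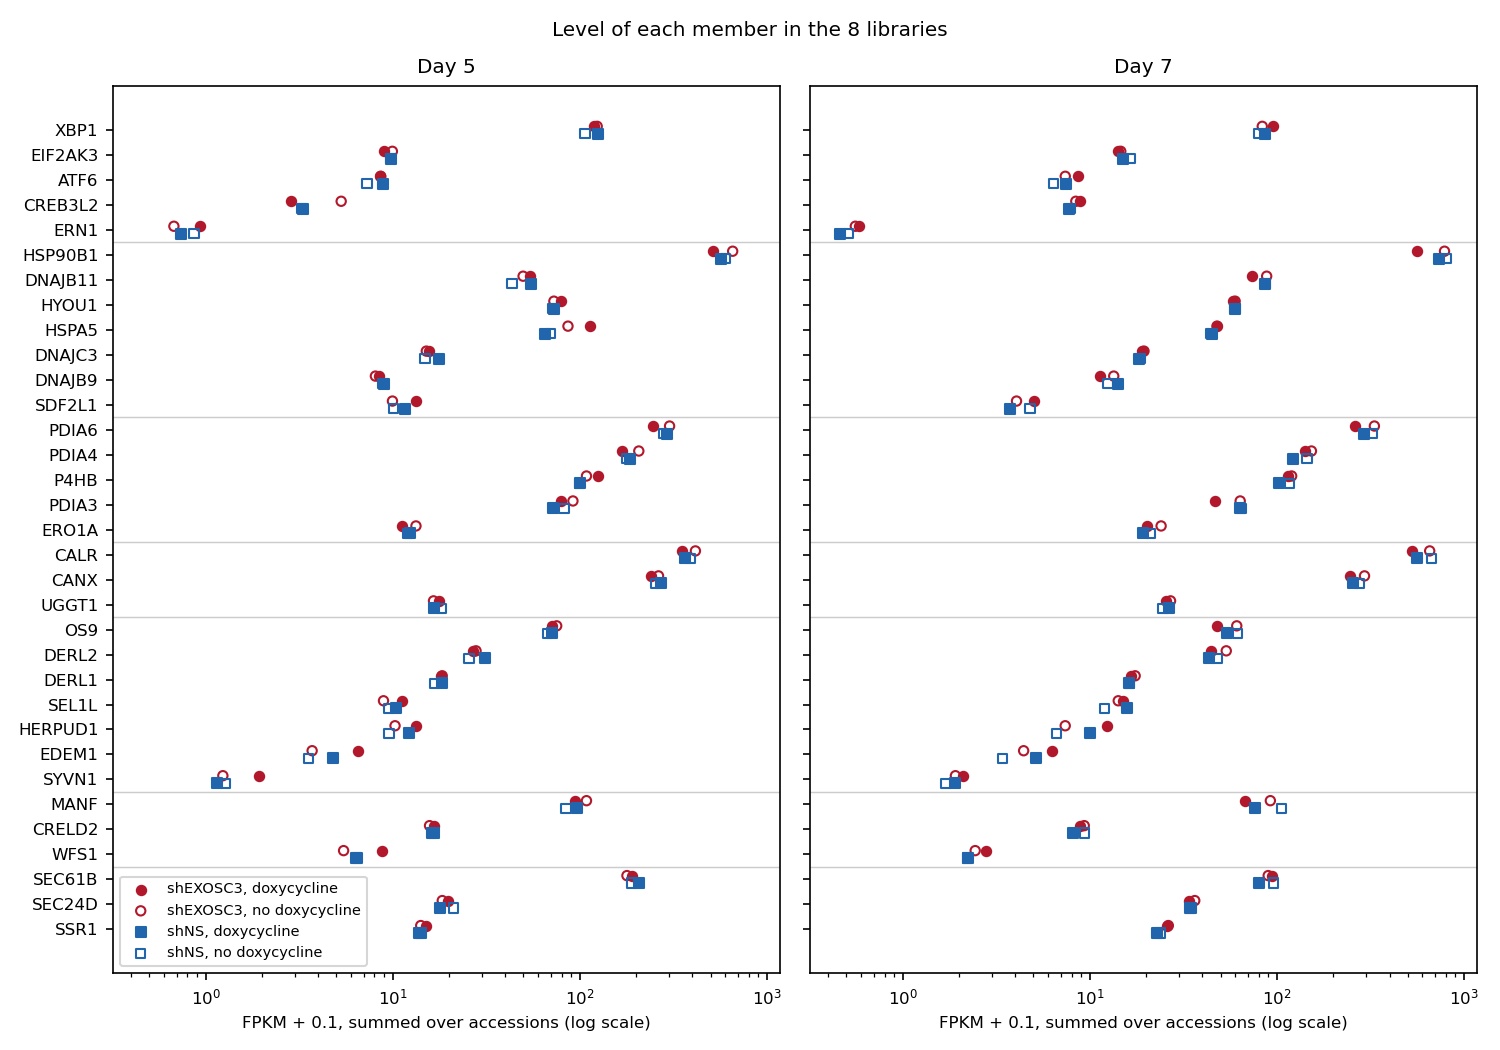
Summed FPKM plus 0.1 of the 33 members on a log axis, on day 5 (left) and day 7 (right), grouped by role from stress sensors at the top to translocation and export at the bottom. Filled symbols are libraries with doxycycline and open symbols libraries without it, circles shEXOSC3 and squares shNS, 1 library each; members span from below 1 FPKM (ERN1) to 806 FPKM (HSP90B1), and filled and open symbols lie close together.

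The 5 most abundant members by mean FPKM were HSP90B1, CALR, PDIA6, CANX and PDIA4, and these carried the level of the whole set. Summed over all 33 genes, the members held 2678 FPKM with doxycycline and 2950 FPKM without in shEXOSC3 on day 5 (90.8% of untreated), and 2657 and 3217 FPKM on day 7 (82.6%). In shNS the sums were 2775 and 2723 FPKM on day 5 (102%), and 2891 and 3201 FPKM on day 7 (90.3%). Without those 5 genes, the other 28 stood at 104% and 92.8% of untreated in shEXOSC3 and at 106% and 94.1% in shNS on days 5 and 7. The summed FPKM of all transcripts also differed, at 680306 with doxycycline and 749721 without in shEXOSC3 on day 5. As a share of that sum, the set held 0.394% with doxycycline and 0.393% without in shEXOSC3 on day 5, and 0.384% and 0.476% on day 7. In shNS the shares were 0.353% and 0.355% on day 5, and 0.417% and 0.468% on day 7. The lower sum of the set in shEXOSC3 on day 5 was thus not a lower share of the library.

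Among the sensors and transcription factors, ERN1, the IRE1 kinase and RNase, was listed at 0.830 FPKM with doxycycline and 0.578 FPKM without in shEXOSC3 on day 5, then at 0.484 FPKM with and 0.459 FPKM without on day 7. In shNS it was at 0.640 FPKM with and 0.769 FPKM without on day 5, then at 0.365 FPKM with and 0.415 FPKM without on day 7. EIF2AK3, the PERK kinase, had ratios between -0.14 and 0.01 in the 4 tables, with 8.89 FPKM with doxycycline and 9.87 FPKM without in shEXOSC3 on day 5 and 14.1 and 14.5 FPKM on day 7. Its locus also holds the antisense gene EIF2AK3-AS1, and reads of the pair cannot be told apart here.

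ATF6, the sensor that is cut in the Golgi, had 8.42 FPKM with doxycycline and 8.54 FPKM without in shEXOSC3 on day 5, and 8.56 and 7.30 FPKM on day 7. In shNS it had 8.74 and 7.19 FPKM on day 5, and 7.40 and 6.32 FPKM on day 7. Its ratio was thus 0.20 on day 7 in both lines, 0.25 in shNS on day 5 and -0.02 in shEXOSC3 on day 5. CREB3L2, a membrane-bound factor of the same class, gave the member ratio farthest from 0 in any table. It had 2.76 FPKM with doxycycline and 5.21 FPKM without in shEXOSC3 on day 5 (log2 -0.72), but 8.81 and 8.32 FPKM on day 7 (0.07). The shNS libraries had 3.21 and 3.17 FPKM on day 5, and 7.67 and 7.79 FPKM on day 7. The untreated shEXOSC3 library of day 5 was the highest of the 4 on that day, and 41.2% of its CREB3L2 level lay in NM_001253775. With NM_194071 alone, the most abundant transcript, the adjusted difference of day 5 was 0.13 in place of -0.74.

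XBP1, the substrate of IRE1, had 119 FPKM with doxycycline and 124 FPKM without in shEXOSC3 on day 5, and 95.2 and 83.4 FPKM on day 7. In shNS the values were 125 and 107 FPKM on day 5, and 86.3 and 80.2 FPKM on day 7. The gene total therefore moved by at most 0.23 of log2. Its transcripts differ by the stretch that IRE1 removes, so their sequences around it are shown; capitals mark the 26 bases that are in the unspliced form NM_005080 and not in the spliced form NM_001079539. The stretch lies on the minus strand at chr22:28796124-28796149 (GRCh38, GENCODE 29 transcripts), in coding sequence, and 26 is not a multiple of 3, so its removal changes the reading frame. Because the bases cag repeat at both of its ends, its exact placement in the alignment is not unique.
NM_005080: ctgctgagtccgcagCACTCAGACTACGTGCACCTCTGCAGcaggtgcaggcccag
NM_001079539: ctgctgagtccgcagcaggtgcaggcccag

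The spliced form was assigned 83.1% of the XBP1 level with doxycycline and 83.7% without in shEXOSC3 on day 5, and 68.1% and 73.4% in shNS. On day 7 the shares were 0.014% and 15.8% in shEXOSC3, and 24.8% and 3.34% in shNS. The 4 day 5 libraries were thus all above the 4 of day 7, and on day 7 the direction with doxycycline was opposite in the 2 lines. As FPKM, the spliced form was at 0.0133 with doxycycline and 13.2 without in shEXOSC3 on day 7, and at 21.4 and 2.68 in shNS. These numbers rest on how reads of a gene were divided between transcripts that differ by 26 bases, in tables made separately, and are given here as the tables list them, not as a measure of splicing.

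Similar shifts between days, in all 4 libraries of each day, were found in other genes of the set. Of 14 members with several transcripts, CANX had 11.7% to 13.9% of its level in NM_001746 on day 5 and 71.4% to 82.0% on day 7. OS9 had 0% in NM_001261422 on day 5 and 40.9% to 58.5% on day 7. HYOU1 had 96.9% to 97.5% in NM_001130991 on day 5 and 71.5% to 88.2% on day 7. The summed gene level, set by the rule given at the start, is used throughout unless a transcript is named.

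**Figure D2:**
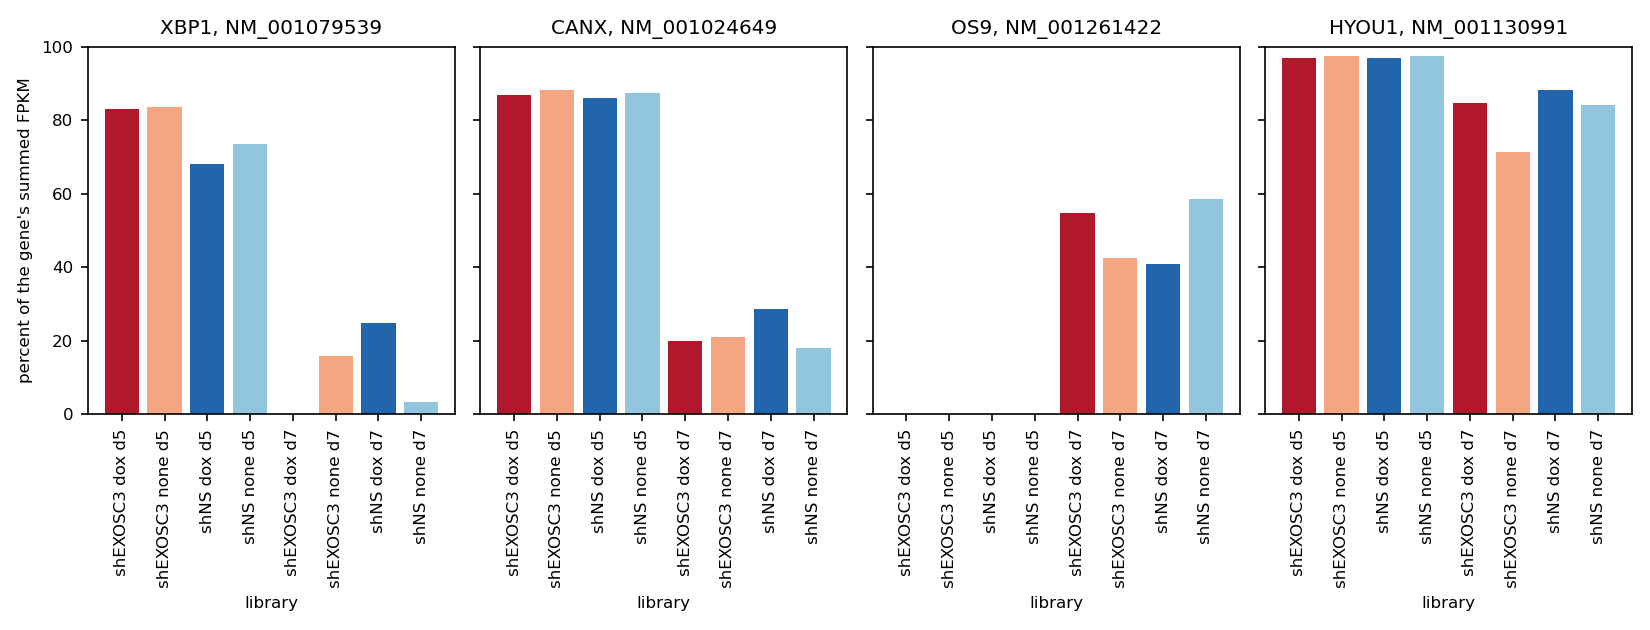
Percent of a gene's summed FPKM held by 1 transcript, for XBP1, CANX, OS9 and HYOU1, in the 8 libraries (1 bar each, dark with doxycycline and light without, red shEXOSC3 and blue shNS). In each panel the 4 day 5 bars on the left stand apart from the 4 day 7 bars on the right; the OS9 transcript was at 0% on day 5, and the XBP1 bar of the shEXOSC3 doxycycline library of day 7 is 0.014%.

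Among the HSP70 and HSP90 chaperones, HSP90B1 (GRP94), at chr12:104324111-104341708 in the deposited hg19 coordinates, was lower with doxycycline in all 4 tables. It had 517 FPKM with doxycycline and 657 FPKM without in shEXOSC3 on day 5, and 559 and 787 FPKM on day 7. shNS cells had 571 and 599 FPKM on day 5, and 734 and 806 FPKM on day 7. Its log2 ratio was -0.35 and -0.49 in shEXOSC3 on days 5 and 7, against -0.07 and -0.14 in shNS, which left adjusted differences of -0.28 and -0.36. It was the only member past 0.32 in the lower direction in shEXOSC3 on both days, beside 4.29% of all genes; in shNS 0 members were, beside 1.58%. Its processed copy HSP90B2P, which can take reads from it, had ratios of -0.34 and -0.58 in shEXOSC3, against -0.06 and -0.14 in shNS.

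HSPA5 (BiP), the HSP70 of the ER that also holds the sensors inactive, was past 0.32 in 1 table. It had 113 FPKM with doxycycline and 86.4 FPKM without in shEXOSC3 on day 5 (log2 0.38). The other tables held 47.8 and 47.7 FPKM in shEXOSC3 on day 7, 65.2 and 69.8 FPKM in shNS on day 5, and 45.2 and 44.0 FPKM in shNS on day 7. The shEXOSC3 doxycycline library was the highest of day 5, and its adjusted difference was 0.48 on day 5 and -0.04 on day 7. SDF2L1, a partner of DNAJB11, was the other gene of this class past 0.32 in shEXOSC3 on day 5, with 13.2 FPKM with doxycycline and 9.88 FPKM without in shEXOSC3 and 11.5 and 9.97 FPKM in shNS. On day 7 it had 4.92 and 3.96 FPKM in shEXOSC3 and 3.67 and 4.69 FPKM in shNS, so that its adjusted difference of 0.54 was the highest of any member that day and came from opposite directions in the 2 lines.

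Among the J-domain cofactors of HSPA5, the adjusted difference farthest from 0 was that of DNAJB9 on day 7. DNAJB9, which acts on IRE1, had adjusted differences of 0.04 and -0.40 on days 5 and 7; its locus overlaps THAP5. DNAJB11 had -0.22 and -0.24, from ratios of 0.11 and -0.25 in shEXOSC3, against 0.34 and -0.01 in shNS. DNAJC3 (-0.19 and -0.03) and HYOU1 (0.10 and -0.05), the exchange factor GRP170, stayed within 0.20 of 0. The 7 genes of this class had a median ratio of 0.11 and -0.05 in shEXOSC3, against 0.03 and -0.01 in shNS.

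The disulfide isomerases and their oxidase were below 0 in shEXOSC3 in 4 of 5 genes on day 5 and 5 of 5 on day 7, as were 57.8% and 59.8% of all genes with a mean of at least 10 FPKM. In shNS 1 of 5 was below 0 on day 5 and 5 of 5 were on day 7, beside 40.5% and 56.3%. PDIA6 had 246 FPKM with doxycycline and 302 FPKM without in shEXOSC3 on day 5, and 263 and 332 FPKM on day 7. The shNS values were 292 and 281 FPKM on day 5, and 292 and 324 FPKM on day 7. Its shEXOSC3 doxycycline library was the lowest of the 4 on each day, with adjusted differences of -0.35 and -0.19. PDIA4 had ratios of -0.29 and -0.12 in shEXOSC3, against 0.05 and -0.24 in shNS. ERO1A, which oxidises the isomerases, had -0.23 and -0.25 in shEXOSC3, against 0.04 and -0.13 in shNS.

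PDIA3 (ERp57), the isomerase that works with the lectin chaperones, had 79.4 FPKM with doxycycline and 91.9 FPKM without in shEXOSC3 on day 5, and 46.5 and 63.6 FPKM on day 7. In shNS it had 72.2 and 82.2 FPKM on day 5, and 63.1 and 64.4 FPKM on day 7. The ratio was below 0 in all 4 tables, and the adjusted difference was -0.02 on day 5 and -0.41 on day 7, the lowest of any member that day. The deposited PDIA3 locus also spans SERF2, HYPK, SERINC4 and ELL3, and its copy PDIA3P1 had ratios of -0.31 and -0.35 in shEXOSC3, against -0.12 and -0.11 in shNS. P4HB, the founding member of the isomerase family, went the other way on day 5 in shEXOSC3 (0.21, with 126 FPKM with doxycycline and 109 FPKM without), and its adjusted differences were 0.20 and 0.10.

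CALR and CANX bind glycoproteins in the calnexin cycle, and UGGT1 marks those not yet folded for another round. CALR had 353 FPKM with doxycycline and 415 FPKM without in shEXOSC3 on day 5, and 524 and 656 FPKM on day 7. The shNS libraries had 367 and 388 FPKM on day 5, and 563 and 668 FPKM on day 7. CALR was thus lower with doxycycline in all 4 tables, with ratios of -0.23 and -0.32 in shEXOSC3, against -0.08 and -0.25 in shNS. CANX had -0.13 and -0.25 in shEXOSC3, against 0.09 and -0.11 in shNS. UGGT1 lay between -0.12 and 0.10 in the 4 tables.

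**Figure D3:**
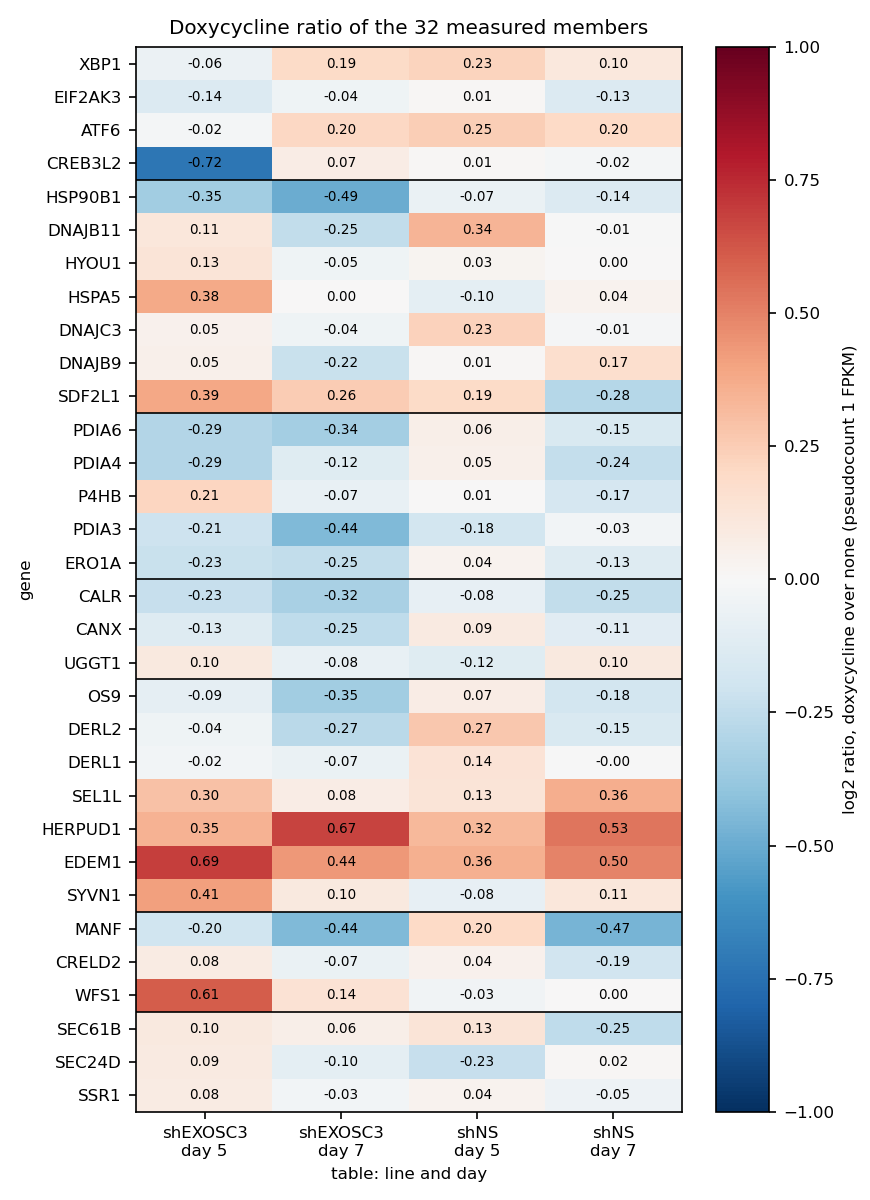
Log2 ratio of doxycycline over none (pseudocount 1 FPKM) of the 32 measured members, with 1 column per table, in the role order of the plot of levels; red is higher and blue lower with doxycycline. HERPUD1, EDEM1 and SEL1L are red in all 4 columns, HSP90B1, CALR and PDIA3 are blue in all 4, and no cell reaches 1 or -1.

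Genes of ER-associated degradation, which recognises misfolded proteins and passes them to the proteasome, held the members that were higher with doxycycline in both lines. HERPUD1, an adaptor of the degradation complex at chr16:56966001-56977793 (hg19), had 13.3 FPKM with doxycycline and 10.2 FPKM without in shEXOSC3 on day 5, and 12.2 and 7.29 FPKM on day 7. In shNS the values were 12.1 and 9.48 FPKM on day 5, and 9.89 and 6.54 FPKM on day 7. Doxycycline libraries were all at or above 9.89 FPKM and untreated ones reached 10.2 FPKM, so the groups met only across days.

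EDEM1, which trims mannose from misfolded glycoproteins, had 6.44 FPKM with doxycycline and 3.61 FPKM without in shEXOSC3 on day 5, and 6.22 and 4.33 FPKM on day 7. shNS cells had 4.72 and 3.46 FPKM on day 5, and 5.08 and 3.31 FPKM on day 7. All 4 doxycycline libraries were above all 4 untreated ones. The share of all genes split in this way, or within each day as HERPUD1 was, was not counted. HERPUD1 and EDEM1 were higher past 0.32 on both days in shEXOSC3, as 5.12% of all genes were, and also in shNS, as 1.55% were. SEL1L, the scaffold of the HRD1 ligase, was the third member above 0 in all 4 tables, with ratios of 0.30 and 0.08 in shEXOSC3, against 0.13 and 0.36 in shNS. Over all genes 12.8% were above 0 in all 4 tables and 12.4% below, so 3 of 32 on each side is no excess; with centred libraries EIF2AK3 joined HSP90B1, CALR and PDIA3 below 0.

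After the shNS ratio was subtracted, the adjusted differences on days 5 and 7 were 0.03 and 0.14 for HERPUD1 and 0.33 and -0.06 for EDEM1. SYVN1, the HRD1 ligase, was low, with 1.84 FPKM with doxycycline and 1.14 FPKM without in shEXOSC3 on day 5 and 2.01 and 1.81 FPKM on day 7. Its adjusted differences were 0.49 and -0.01, and the day 5 value turned to -0.84 when the most abundant transcript, NM_032431, stood for the gene, since that transcript was listed at 0 in the shEXOSC3 doxycycline library of day 5. Its locus also holds MRPL49 and FAU. The lectin OS9 had ratios of -0.09 and -0.35 in shEXOSC3, against 0.07 and -0.18 in shNS. The channel proteins DERL1 and DERL2 had -0.02 and -0.07, and -0.04 and -0.27, in shEXOSC3 on days 5 and 7, and 0.14 and 0.00, and 0.27 and -0.15, in shNS.

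Of the secreted and membrane stress proteins, MANF, which leaves the cell when ER calcium drops, had 67.7 FPKM with doxycycline and 92.2 FPKM without in shEXOSC3 on day 7, and 76.1 and 105 FPKM in shNS. Both lines were thus lower on day 7 (-0.44 and -0.47), while on day 5 the ratios were -0.20 in shEXOSC3 and 0.20 in shNS. WFS1, a membrane protein mutated in Wolfram syndrome, had the highest adjusted difference of day 5 (0.64). It had 8.71 FPKM with doxycycline and 5.37 FPKM without in shEXOSC3, against 6.24 and 6.40 FPKM in shNS, and on day 7 its adjusted difference was 0.14 at 2.12 to 2.69 FPKM. CRELD2, a secreted isomerase-like protein, lay between -0.19 and 0.08 in the 4 tables.

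The translocation and export members differed little in shEXOSC3. SEC61B, a subunit of the protein-conducting channel, had ratios of 0.10 and 0.06 in shEXOSC3, against 0.13 and -0.25 in shNS. SSR1, of the translocon-associated complex, lay between -0.05 and 0.08. SEC24D, a cargo adaptor of the COPII coat, had 0.09 and -0.10 in shEXOSC3, against -0.23 and 0.02 in shNS.

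After subtraction of the shNS ratio, the median over members was -0.09 on day 5 and -0.04 on day 7, beside 0.00 and -0.01 over all genes and -0.08 and -0.03 over the 6604 genes with a mean of at least 10 FPKM. Again 0 of 32 members reached 2-fold, beside 2.43% and 3.96% of all genes. Past 0.32, 5 members were higher and 4 lower on day 5, beside 15% and 12.4% of all genes; centring each library gave 3 higher and 5 lower. On day 7, 1 was higher and 3 lower, beside 14.3% and 11.9%. The higher genes of day 5 were WFS1, SYVN1, HSPA5, EDEM1 and SEC24D, and the lower ones CREB3L2, MANF, PDIA6 and PDIA4. Setting the doxycycline libraries of the 2 lines against each other across tables left 0 of the lower ones past 0.32 (MANF -0.03, CREB3L2 -0.16, PDIA6 -0.25, PDIA4 -0.13). A pseudocount of 5 FPKM left 2 higher on day 5 (HSPA5 0.46 and WFS1 0.42) and 0 on day 7 (SDF2L1 0.31). On day 7 SDF2L1 was higher and PDIA3, DNAJB9 and HSP90B1 lower. No gene was in the same group on both days (0 higher and 0 lower, beside 3.93% and 2.2% of all genes). Of the 32 members, 6 were above 0 (18.75%) and 11 below 0 (34.4%) on both days and 15 lay on different sides. The shares were 26.0% above and 28.9% below for all genes. For genes with a mean of at least 10 FPKM they were 18.1% above and 37.4% below, close to those of the members.

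**Figure D4:**
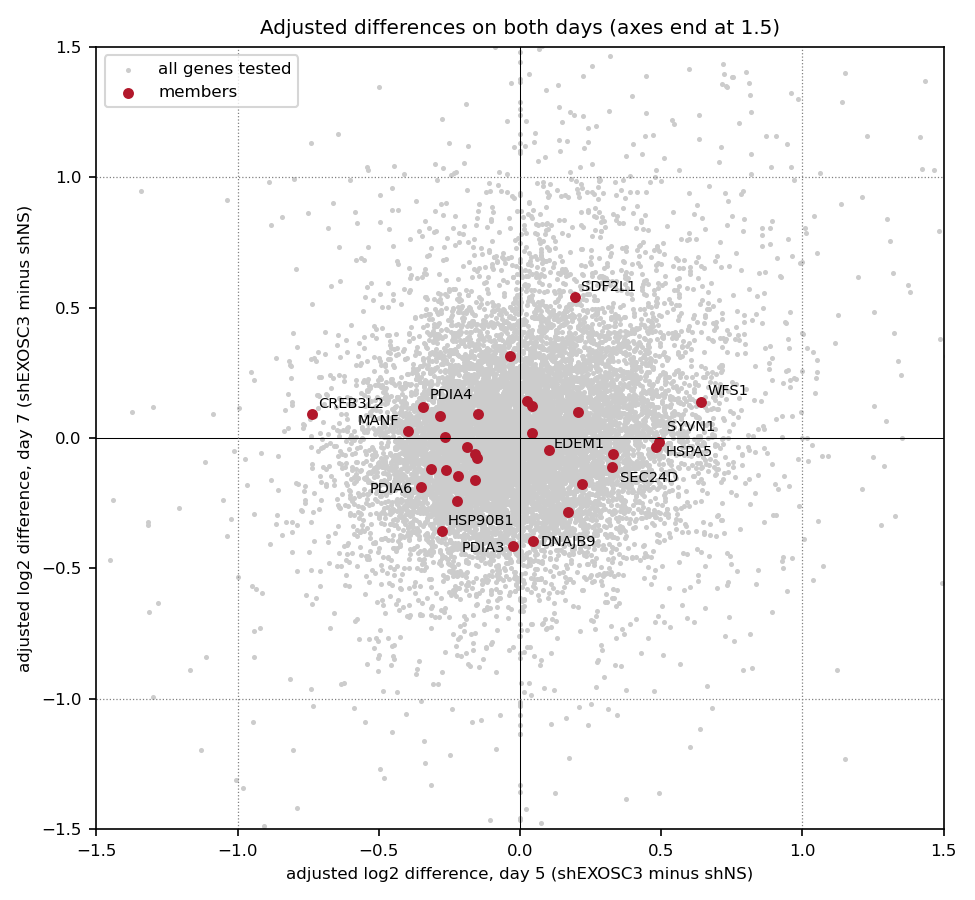
Adjusted log2 difference (ratio of doxycycline over none in shEXOSC3 minus that in shNS) on day 5 (horizontal) against day 7 (vertical), for all 13116 genes compared (grey; genes past 1.5 are outside the axes) and the 32 members (red). Members past 0.32 on either day are named; all members lie inside the dotted 2-fold lines, and no member is past 0.32 in the same direction on both days; HSP90B1 lies at -0.28 and -0.36.

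Chaperone genes are known for the ER stress response element (ERSE), CCAAT and CCACG with 9 bases between them, and HERPUD1 for a second form, ERSE-II, ATTGG and CCACG with 1 base between them. Both are bound by ATF6 with NF-Y. These and the core of the unfolded protein response element, TGACGTGG, were searched on both strands of RefSeq promoters (GRCh38.p14), from 250 bases before to 50 bases after each start. A promoter was found for 30 of 33 members; DERL1, PDIA3 and SEC24D were not matched. The ERSE was in 7 of 30 members (23.3%), against 25 of 27305 genes (0.0916%). ERSE-II was in 3 of 30 members (10%), against 19 genes (0.0696%). The core TGACGTGG was in 1 member, HYOU1, where it overlaps an ERSE-II match, against 253 genes (0.927%). The elements were defined on genes of this kind, so the shares describe the list and are no test of it.

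The 8 ERSE matches are shown with 8 flanking bases, on the strand that reads CCAAT first; capitals mark the fixed letters of the motif.
HSPA5, chr9:125241391-125241409, minus strand: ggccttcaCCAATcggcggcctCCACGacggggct
HSP90B1, chr12:103930216-103930234, plus strand: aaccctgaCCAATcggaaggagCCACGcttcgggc
HSP90B1, chr12:103930321-103930339, minus strand: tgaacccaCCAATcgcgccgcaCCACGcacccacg
CALR, chr19:12938384-12938402, minus strand: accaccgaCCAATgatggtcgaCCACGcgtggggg
CANX, chr5:179698778-179698796, plus strand: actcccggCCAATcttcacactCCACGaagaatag
PDIA6, chr2:10812853-10812871, minus strand: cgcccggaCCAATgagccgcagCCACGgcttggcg
XBP1, chr22:28800603-28800621, minus strand: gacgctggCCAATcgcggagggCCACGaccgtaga
CRELD2, chr22:49918554-49918572, minus strand: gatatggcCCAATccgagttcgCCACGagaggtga

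The matches of the second form are shown the same way, on the strand that reads ATTGG first.
HERPUD1, chr16:56932025-56932035, plus strand: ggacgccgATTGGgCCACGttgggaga
HYOU1, chr11:119057274-119057284, plus strand: gcgtactcATTGGaCCACGtcccaggc
HYOU1, chr11:119057380-119057390, plus strand: ggcctgggATTGGaCCACGtcacgggg
SDF2L1, chr22:21642114-21642124, minus strand: gggttttgATTGGtCCACGcttccgag

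HSP90B1 was 1 of 3 members lower in all 4 tables, with CALR and PDIA3, and HERPUD1 1 of 3 higher, with EDEM1 and SEL1L. CALR also had an ERSE match, while EDEM1 and SEL1L had none of the motifs. For HSP90B1 and HERPUD1 the 250 bases before the start are given on the plus strand, which is the strand of both genes. The fixed letters of each match are in capitals. In HSP90B1 the second match runs on the opposite strand and so reads CGTGG before ATTGG.
HSP90B1, chr12:103930160-103930409: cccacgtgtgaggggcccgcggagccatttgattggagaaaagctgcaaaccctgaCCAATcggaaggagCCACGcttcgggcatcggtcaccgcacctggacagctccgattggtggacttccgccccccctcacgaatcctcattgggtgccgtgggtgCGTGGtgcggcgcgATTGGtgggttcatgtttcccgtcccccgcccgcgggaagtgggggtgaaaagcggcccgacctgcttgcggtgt
HERPUD1, chr16:56931892-56932141: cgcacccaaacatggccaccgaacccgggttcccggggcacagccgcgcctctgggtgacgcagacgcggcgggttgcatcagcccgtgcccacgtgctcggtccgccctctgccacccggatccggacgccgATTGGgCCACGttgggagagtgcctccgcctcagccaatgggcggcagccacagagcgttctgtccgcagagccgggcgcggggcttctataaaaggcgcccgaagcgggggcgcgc

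The 7 members with an ERSE match had a median ratio of -0.13 and -0.25 in shEXOSC3 on days 5 and 7, against 0.04 and -0.14 in shNS. The 3 with ERSE-II had 0.35 and 0.26 in shEXOSC3, against 0.19 and 0.00 in shNS. The 19 measured members with a promoter and none of the motifs had 0.05 and -0.04 in shEXOSC3, against 0.05 and -0.02 in shNS. The ranges overlapped in each table: in shEXOSC3 on day 5 the ERSE group ran from -0.35 (HSP90B1) to 0.38 (HSPA5) and the ERSE-II group from 0.13 (HYOU1) to 0.39 (SDF2L1). A match is a description of letters and not of a bound site.

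Other genes of the pathway were read from lists by role, 77 genes of which 76 were measured. The lists were chosen with earlier results of these data known, so the order among them is a description and no test. The PERK and ATF4 arm (11 of 12 measured) had the highest median of these lists in each table, 0.39 and 0.76 in shEXOSC3 on days 5 and 7, against 0.40 and 0.53 in shNS. Of its 11 genes, 7 and 7 were higher past 0.32 in shEXOSC3 on days 5 and 7, against 6 and 7 in shNS, and 0 were lower in any table. The shares over all genes, in the same order, were 14.1%, 13.4%, 5.18% and 8.17% higher, and 10.8%, 12%, 5.6% and 8.35% lower. Centring left medians of 0.34, 0.72, 0.37 and 0.49. The medians of this arm thus lay above 0 in both lines, and the cause of these ratios was not tested.

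TRIB3, a pseudokinase induced by ATF4, had 22.2 FPKM with doxycycline and 7.05 FPKM without in shEXOSC3 on day 5, and 9.86 and 3.59 FPKM on day 7. The shNS values were 20.8 and 7.47 FPKM on day 5, and 7.79 and 2.93 FPKM on day 7. It was past 2-fold in all 4 tables. DDIT3 (CHOP), a pro-apoptotic transcription factor, had 22.9 FPKM with doxycycline and 12.1 FPKM without in shEXOSC3 on day 5, and 43.8 and 22.6 FPKM on day 7. In shNS it had 24.8 and 12.2 FPKM on day 5, and 41.4 and 20.6 FPKM on day 7. For both genes every doxycycline library was above the untreated libraries of its day, and the share of all genes with that order was not counted.

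ASNS, which makes asparagine, had ratios of 0.74 and 0.76 in shEXOSC3, against 0.70 and 0.88 in shNS. CHAC1, which degrades glutathione, had 0.76 and 0.88 in shEXOSC3, against 0.56 and 0.78 in shNS. ATF4 itself had -0.14 and 0.11 in shEXOSC3, against 0.24 and 0.00 in shNS, and EIF2S1, which encodes eIF2 alpha, had -0.11 and -0.19 in shEXOSC3, against 0.10 and -0.14 in shNS. After subtraction of shNS the median of the arm was 0.04 and 0.08. SESN2, an ATF4 target that restrains mTORC1, had the highest mean of both days, with adjusted differences of 0.45 and 0.40 from 27.9 FPKM with doxycycline and 15.03 FPKM without in shEXOSC3 on day 5 and 27.0 and 13.7 FPKM on day 7, against 21.7 and 16.2 FPKM and 20.1 and 13.6 FPKM in shNS.

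**Figure D5:**
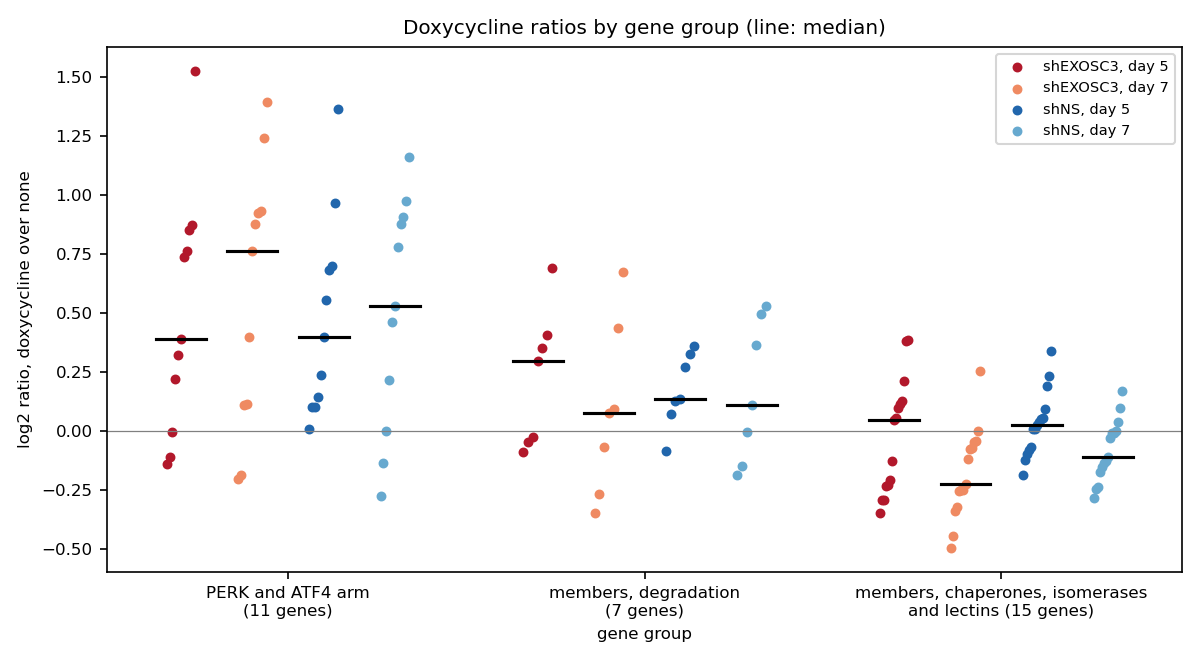
Log2 ratio of doxycycline over none in each table for 11 genes of the PERK and ATF4 arm, 7 degradation members and 15 chaperone, isomerase and lectin members; points are genes and black lines medians. Medians of the PERK and ATF4 arm lie between 0.39 and 0.76 in all 4 tables of both lines, above those of the member groups. The genes were listed with earlier results of these data known.

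The medians of the other lists lay closer to 0 than those of the PERK and ATF4 arm in each of the 4 tables. The ATF6 and CREB3 family with its proteases (6 genes) had medians of 0.20 and -0.01 in shEXOSC3, against 0.00 and 0.12 in shNS; by the mean of both days CREB3L1 (adjusted 0.37 and 0.00) and the protease gene MBTPS2 (0.14 and 0.08) were the highest and CREB3L4 (-0.24 and 0.03) and CREB3 (0.19 and -0.21) the lowest. The folding and oxidation genes (12) had the lowest adjusted median on day 5 of these lists, -0.30, and -0.04 on day 7. On day 5, 6 of them were lower and 0 higher past 0.32, beside 12.4% lower and 15% higher of all genes. Among genes with a mean of at least 10 FPKM, 16.1% were lower and 9.16% higher. The prolyl isomerase FKBP2 (-0.38 and -0.36) and the disulfide isomerase TXNDC5 (-0.33 and -0.37) were the lowest there on the mean of both days, and TXNDC11 (0.25 and 0.41) and the HSPA5 exchange factor SIL1 (-0.14 and 0.39) the highest. On day 5 FKBP2 had 48.9 FPKM with doxycycline and 64.3 FPKM without in shEXOSC3, against 46.9 and 47.0 FPKM in shNS. TXNDC5 had 106 and 123 FPKM in shEXOSC3, against 126 and 115 FPKM in shNS. Between the doxycycline libraries of day 5 alone, FKBP2 was thus not lower in shEXOSC3, while TXNDC5 was.

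The translocation and signal peptide cleavage genes (14) had adjusted medians of -0.15 and 0.04. The signal recognition particle receptor subunit SRPRB (-0.37 and -0.41) and the signal peptidase subunit SEC11A (-0.16 and -0.34) were lowest, and SPCS2 (0.55 and -0.15) and SEC61A1 (0.05 and 0.16) highest. Glycan processing and transfer genes (14) had -0.09 and -0.06, from the glucosidases GANAB (0.29 and 0.24) and MOGS (0.14 and 0.34) to RPN1 (-0.44 and -0.09), of the oligosaccharyltransferase, and the cargo lectin LMAN1 (-0.20 and -0.27).

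The other degradation genes (10) had -0.20 and 0.11. The ligase RNF5 (-0.95 and -0.57), at 0.670 to 2.33 FPKM, and DERL3 (-0.08 and -0.19) were the lowest, and the segregase VCP had -0.05 and 0.16. COPII coat genes (9) had -0.11 and -0.02, with SEC31A (0.02 and 0.64) and SEC24C (0.15 and 0.07) highest and SEC23A (-0.36 and -0.17) and SEC13 (-0.25 and -0.11) lowest. Over all 76 genes, 5 were higher and 12 lower past 0.32 on day 5 and 7 higher and 6 lower on day 7 after subtraction, and 0 reached 2-fold. Over all genes the higher shares were 15% and 14.3%, and the lower shares 12.4% and 11.9%.

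Levels also differed between the days, in tables that were made separately and whose scales may differ. All 4 day 7 libraries were above all 4 of day 5 in 12 of the 32 members, beside 27.2% of all genes, and below them in 10, beside 37.1%. CALR was among the higher ones, at 524 to 668 FPKM on day 7 and 353 to 415 FPKM on day 5, with CREB3L2 at 7.67 to 8.81 FPKM and 2.76 to 5.21 FPKM. HSPA5 was among the lower ones, at 44.0 to 47.8 FPKM on day 7 and 65.2 to 113 FPKM on day 5, with SEC61B at 80.1 to 95.7 FPKM and 179 to 208 FPKM. Whether this is time or the making of the tables cannot be told apart.

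The authors' deposited tables give a p-value for 1 library against 1 library per transcript. In them 47, 48, 47 and 43 member transcripts were tested in shEXOSC3 on days 5 and 7 and in shNS on days 5 and 7, and 2, 1, 0 and 2 had p below 0.05, beside 4.58%, 5.10%, 4.17% and 6.32% of all transcripts tested there. The lowest in the authors' deposited table of shEXOSC3 on day 5 was HERPUD1 NM_014685 (p = 0.0154, q = 0.765), whose untreated library had 38.5% of the gene in another transcript. In the authors' deposited table of shNS on day 7 it was EDEM1, which was also below 0.05 in that of shEXOSC3 on day 5. The other transcripts below 0.05 were 1 of OS9 in shEXOSC3 on day 7 and the spliced form of XBP1 in shNS on day 7. The OS9 transcript was lower with doxycycline, at 13.9 FPKM with and 28.3 FPKM without. The XBP1 form was higher, at 21.4 FPKM with and 2.68 FPKM without.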

How the data were processed

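The 8 libraries were grouped by sample titles. The reads went through CASAVA 1.8, TopHat and Cufflinks on hg19 (GRCh37), per the submitters' processing notes; the sources used here give no TopHat or Cufflinks version and no strand setting. Per the file headers, the 4 deposited tables hold FPKM in Cuffdiff layout, and the p-value and q-value that the authors deposited, each for 1 untreated and 1 doxycycline library. Of 49235 transcripts, 48147 (97.8%) got a symbol through a RefSeq table of a later assembly, used for names only. FPKM were summed per gene. Genes with a failed transcript estimate (55, 0 of them members) or a mean below 1 FPKM were left out, which left 13116. Log2 ratios used a pseudocount of 1 and were formed within a table; the adjusted difference is the shEXOSC3 ratio minus the shNS ratio of a day. Groups hold 1 library, so genes were described by size, at log2 0.32 (a ratio of 5 to 4) and 2-fold, with no test. All members, EXOSC3, the members nearest to 2-fold, and the 2 highest and 2 lowest genes of each pathway list by the mean adjusted difference are named; of these, 1 is not reported here. Other genes named were chosen after their values were seen. Members and lists were chosen with earlier results of these data known. The ratio script was checked on simulated data. Python 3.11.15, pandas 2.3.3 and numpy 2.4.6 were used.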

Additional observations from a re-analysis of the deposited data

Results flagged for a closer look

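In 7 of 109 genes (33 members and 76 other pathway genes; 6.42%) the doxycycline ratio had one sign on both days in shEXOSC3 and the opposite sign on both days in shNS, beside 9.47% of all genes compared. With 1 library per group this difference was not tested. Of the members it was ERN1 alone, at under 1 FPKM, with log2 ratios of 0.21 and 0.02 in shEXOSC3 on days 5 and 7 and -0.11 and -0.05 in shNS, and a mean adjusted difference of 0.20. The other pathway genes were TXNDC11 (mean adjusted difference 0.33), GANAB (0.26), SEC11A (-0.25), RPN1 (-0.27), SEC23A (-0.27) and STT3A (-0.08). For STT3A, a catalytic subunit of the oligosaccharyltransferase, all 4 ratios lay between -0.04 and 0.10.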

How the results depend on the processing

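No member reached 2-fold (0) under any of the 9 alternatives, and all 50 medians over members that were recomputed stayed within 0.1 of log2 of the reported value. Of 150 recomputed counts 131 stayed within 1.5 times and 19 did not. These counts include the 2-fold counts, which were 0 throughout, so all that moved were counts at log2 0.32. Of 564 member values 20 changed sign, of which 2 had been past log2 0.32 as reported. Keeping failed estimates, dropping the floor or raising it cannot change the value of a member that is kept. Part of the unchanged values was thus fixed in advance and is no sign of stability. With a pseudocount of 0.1 FPKM, members lower past log2 0.32 in shNS on day 7 were 2. With a pseudocount of 5 FPKM, members higher past it were 3 and 1 in shEXOSC3 on days 5 and 7, 0 and 1 in shNS, and 2 and 0 after subtraction. With a mean of at least 10 FPKM (26 members), 2 were higher and 1 lower in shEXOSC3 on day 5, 1 was higher on day 7, and 2 and 0 were higher after subtraction on days 5 and 7. With the most abundant transcript for each gene, 2 were higher and 5 lower on day 7 after subtraction, and day 5 values of SYVN1 (-0.84) and CREB3L2 (0.13) reversed. Centring each library on its median gene gave 4 lower in shEXOSC3 and 1 higher in shNS on day 5, 2 lower in shNS on day 7, and 3 higher after subtraction on day 5. Comparing doxycycline libraries across tables gave 0 lower on day 5, and medians of -0.03 and 0.04 on days 5 and 7 in place of -0.09 and -0.04. Low genes leave the counts with a larger pseudocount or floor by construction; for the others the cause was not tested. No paired analysis was possible because the labels give no replicate numbers to serve as a block; each ratio already sets a doxycycline library against the untreated one of its line and day, and a fit that takes lines and days as replicates was not run. Depth is unknown, so members under a few FPKM (ERN1, SYVN1, CREB3L2, WFS1, EDEM1) carry counting error that cannot be given.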
